A study of Mus musculus with 3 samples.

Results

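Tyrobp, Trem2 and 8 genes of the same receptor system were followed through 3 two-colour arrays. The 10 genes were Tyrobp, Hcst, Trem2, Trem1, Pilrb1, Syk, Pilra, Sirpa, Cd300lf and Lilrb4a. They were chosen by name, and every probe annotated to a RefSeq transcript of 1 of them was taken, which gave 14 of 41174 probes and 10 of 33269 genes or transcripts. The choice was made with the contrast between the genotypes known, so the values of these 10 genes in that contrast are given as a description, without a test.

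The cells were primary fibroblasts, cells of connective tissue, taken from mouse embryos of stage E12.5. They were untreated and grown in DMEM with serum, and 1 µg of total RNA was labelled per sample. The samples labelled SA1-null lack, per their labels, the cohesin subunit SA1 encoded by Stag1, and their RNA was in Cy3 on all 3 arrays. The samples labelled wild type were in Cy5 on all 3 arrays. The dyes were never exchanged, and effects of dye and of genotype cannot be told apart. Each array held 1 sample of each kind and is 1 of 3 biological replicates per the labels. The labels state neither how the allele was made nor whether the embryos shared litters. If they came from 1 litter, SDs and p-values measure only the spread between these samples.

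Tyrobp, also called DAP12, is a short membrane protein that carries an ITAM, a tyrosine motif in its cytoplasmic tail. Receptors with little tail of their own, such as Trem2, Trem1 and Pilrb1, pair with it through a charged residue in the membrane. When Src-family kinases phosphorylate the ITAM, the kinase Syk docks there and starts the signal. Inhibitory relatives such as Pilra, Sirpa, Cd300lf and Lilrb4a carry ITIMs instead, which recruit the phosphatases Ptpn6 and Ptpn11. Most of this system belongs to macrophages, microglia, osteoclasts and granulocytes.

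Stag1 went against the labels. It was higher in the channel labelled SA1-null on all 3 arrays, with log2 ratios of 3.34, 3.74 and 3.47 (mean 3.52 ± 0.21, SD, n = 3). Of its 3 other probes, 1 rose above background in each of the 6 samples and averaged 3.53 ± 0.35. Another averaged 2.17 ± 0.53 but was above background in wild type on 2 of 3 arrays, and the last was above it there on 0. "SA1-null" and "wild type" therefore stand below for the channels so labelled, and every sign turns over if the labels are exchanged. Where the deletion lies in Stag1 is not given in the labels, so the probes do not show whether the protein is made. Of all probes, 60.6% to 65.7% were well above background in Cy3 and 61.8% to 67.0% in Cy5. Replicates 2 and 3 shared a slide that replicate 1 was not on, and the ratios of the arrays correlated across genes at 0.370 (replicates 1 and 2), 0.272 (1 and 3) and 0.471 (2 and 3). Genes are not independent points in these correlations.

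Upstream sequence was at hand for 7 of the 10 genes, in RefSeq windows of build GRCm38.p6 that run 250 bases before and 50 after a start site. Syk has 2 such windows, which makes 8. The 250 bases before the start are printed for 4 of them, to show the near-identical Pilra and Pilrb1 promoters beside those of Trem2 and Cd300lf. Trem2 had the larger ratio of the Trem receptors with the main background correction (normexp, offset 50), and Cd300lf held the most matches. All are written 5′ to 3′ on the strand of the gene. Capitals mark GAGGAA, the purine box that the myeloid factor Spi1 (PU.1) is known to bind, and GGAAGT, a core shared by many ETS factors, each searched on both strands. The Trem2 and Cd300lf lines are chr17:48346151-48346400 on the plus strand and chr11:115133993-115134242 on the minus strand. The Pilra and Pilrb1 lines are chr5:137836279-137836528 and chr5:137858050-137858299, both on the minus strand.
Trem2: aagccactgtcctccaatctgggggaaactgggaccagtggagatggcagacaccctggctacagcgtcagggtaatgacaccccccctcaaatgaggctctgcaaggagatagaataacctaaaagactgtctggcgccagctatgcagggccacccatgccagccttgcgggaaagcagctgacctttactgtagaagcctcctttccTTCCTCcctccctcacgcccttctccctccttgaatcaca
Cd300lf: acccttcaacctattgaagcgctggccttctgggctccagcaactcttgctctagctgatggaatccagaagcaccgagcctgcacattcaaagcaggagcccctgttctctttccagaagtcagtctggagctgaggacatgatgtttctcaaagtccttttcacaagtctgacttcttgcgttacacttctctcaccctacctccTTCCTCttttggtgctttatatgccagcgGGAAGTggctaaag
Pilra: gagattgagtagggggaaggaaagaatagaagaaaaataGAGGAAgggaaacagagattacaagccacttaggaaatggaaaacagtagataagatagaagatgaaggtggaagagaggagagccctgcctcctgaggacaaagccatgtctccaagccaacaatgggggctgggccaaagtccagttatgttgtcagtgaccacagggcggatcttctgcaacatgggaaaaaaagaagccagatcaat
Pilrb1: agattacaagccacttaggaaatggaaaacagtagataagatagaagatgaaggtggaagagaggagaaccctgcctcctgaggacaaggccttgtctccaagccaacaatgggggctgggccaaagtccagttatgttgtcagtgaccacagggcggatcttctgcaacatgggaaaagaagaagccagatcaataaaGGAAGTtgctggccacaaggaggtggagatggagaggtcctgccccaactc

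Over the whole windows of 300 bases, GAGGAA was in 5 of the 8 and GGAAGT in 6, while 28.3% and 23.8% of all 32851 windows in the RefSeq table hold them. TATAAA was in 1 of the 8, against 13.6% of all windows. In Trem2 the match to GAGGAA is on the other strand, at position -40 from the start site. In Cd300lf the matches begin at positions -43 and 1 for GAGGAA and at -14 and 3 for GGAAGT, where those at 1 and 3 overlap as 1 longer run. The window of Hcst, the neighbour of Tyrobp, holds GGAAGT at -45 and -16. The Pilra and Pilrb1 windows align over 246 columns with 242 identities, 4 mismatches and 0 gaps (98.4% identity), with bases 1 to 246 of the Pilrb1 window set against bases 55 to 300 of the Pilra window. GGAAGT stands at position 4 in Pilra and at -51 in Pilrb1, which is the same aligned site. It is counted in both windows among the 6, so these windows are not independent. A match is a string of letters and no evidence of binding.

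All 14 probes had a log2 ratio of SA1-null over wild type below 0 on all 3 arrays, although 1 array of Syk was at -0.01. The brightest probe stands for each gene below. The median over the 10 genes was -1.93, which is 3.82-fold lower in SA1-null, and the same median within single arrays was -2.03, -2.19 and -2.30. The median of all 18485 genes tested was -0.02, and their 5th and 95th percentiles were -0.74 and 0.46. Ratios under -1 were seen in 9 of the 10 genes and in 3.11% of all genes, and ratios below 0 on all arrays in 10 of 10 and in 19.1% of all genes. In the fit over all genes (limma with Benjamini-Hochberg adjustment, threshold 0.05), 58 genes or 0.314% were called, 56 of them lower (0.303%) and 2 higher in SA1-null. Tyrobp, Trem2, Pilra and Pilrb1 were the 4 called of the 10, and since the choice used this contrast nothing is read from that count. In RNA of whole cultures, fewer cells of a type and less RNA per cell cannot be told apart.

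**Figure D1:**
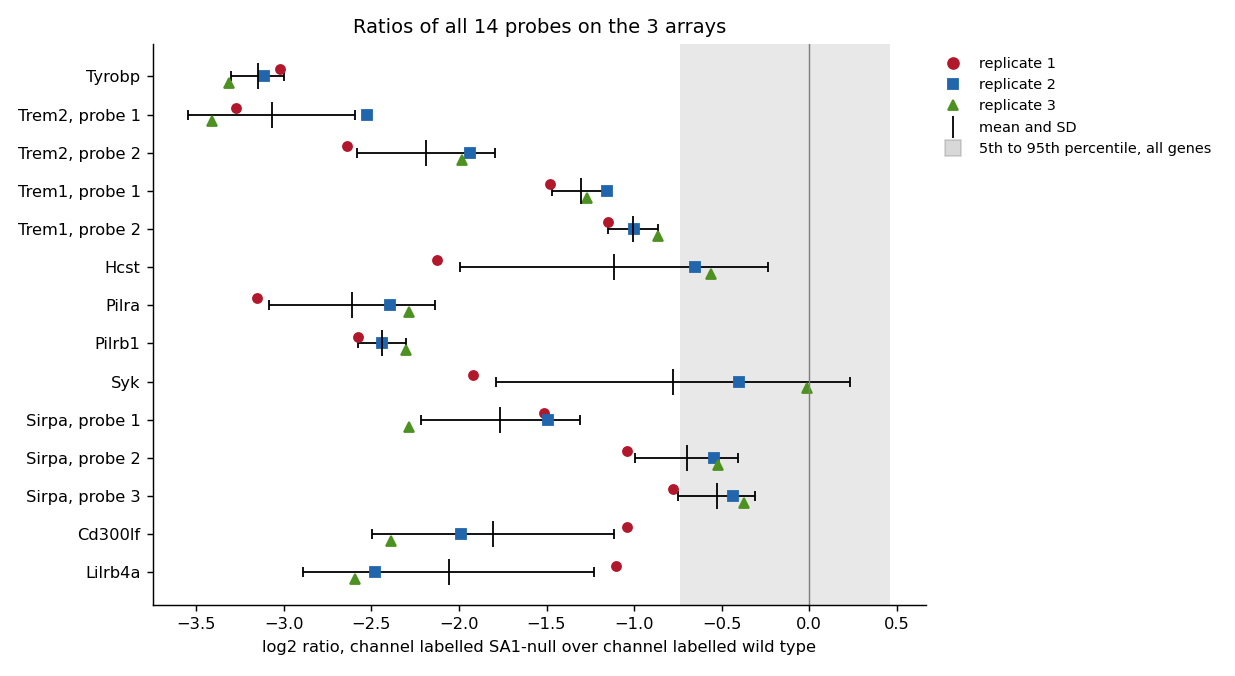
Log2 ratio of SA1-null over wild type, as the channels are labelled (x axis), for each of the 14 probes (rows), with 1 symbol per replicate and the mean and SD as a bar. All points lie below 0, with Syk on replicate 3 nearest to it at -0.01, and the grey band is the 5th to 95th percentile of all genes tested, -0.74 to 0.46.

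The adaptor Tyrobp had the lowest mean ratio of the 10. Its median spot signal, before any correction, was 3440, 630 and 637 in SA1-null samples 1, 2 and 3, against 96107, 11248 and 7249 in wild-type samples 1, 2 and 3. After normalization its levels were 12.26, 10.17 and 9.62 in SA1-null samples, against 15.28, 13.28 and 12.93 in wild-type samples (log2). The groups did not overlap. How many of all genes tested had groups without overlap was not counted, so nothing is read from such a gap here or below. The ratios were -3.02, -3.11 and -3.32, a mean of -3.15 ± 0.15 (SD, n = 3) or 8.87-fold lower in SA1-null. The ratio was steadier between arrays than the level, whose SD was 1.39 in SA1-null and 1.27 in wild type.

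Hcst, also called DAP10, is the adaptor that carries a PI3-kinase motif in place of an ITAM and serves the receptor Klrk1 (NKG2D). Its levels were 6.47, 6.70 and 6.48 in SA1-null samples, against 8.60, 7.35 and 7.04 in wild-type samples. The groups did not overlap, and the difference within an array was widest on replicate 1. Its ratios were -2.13, -0.65 and -0.56 (mean -1.11 ± 0.88). Without replicate 1 the mean of Hcst was -0.61.

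Trem2, the lipid-sensing receptor of microglia, tissue macrophages and osteoclasts, came next to Tyrobp with the main background correction. Its brighter probe had a spot signal of 2647, 291.5 and 276.5 in SA1-null samples, against 87815, 3566 and 3329 in wild-type samples. Normalised levels were 11.86, 9.21 and 8.47 in SA1-null samples, against 15.14, 11.74 and 11.88 in wild-type samples. Here the groups overlapped across arrays, because SA1-null sample 1 lay above wild-type sample 2, while within each array SA1-null was lower. The ratios were -3.27, -2.53 and -3.41 (mean -3.07 ± 0.48, 8.40-fold lower). The second Trem2 probe gave -2.64, -1.94 and -1.99 (mean -2.19 ± 0.39), so the probes differed by 0.88 in the size of the ratio and not in its sign.

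Trem1, a receptor that amplifies inflammatory responses of neutrophils and monocytes, was dim. Its brighter probe had levels of 6.03, 6.80 and 6.46 in SA1-null samples, against 7.51, 7.95 and 7.73 in wild-type samples, without overlap. Neither Trem1 probe was well above background in SA1-null sample 1, and both were in the other 5 samples. The ratios were -1.48, -1.15 and -1.27 (mean -1.30 ± 0.17), and the second probe averaged -1.01 ± 0.14. For so dim a gene the ratio depends on the background correction: it was -3.40 with the scanner's own processed signals.

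Pilra and Pilrb1 are a pair of neighbouring genes, the first inhibitory and the second activating through Tyrobp. The spot signal of Pilra was 52, 98 and 117 in SA1-null samples, against 1965, 1227 and 722 in wild-type samples. That of Pilrb1 was 48, 68.5 and 79 in SA1-null samples, against 1257, 867.5 and 528 in wild-type samples. Both genes were lower in SA1-null on each array, and for neither did the levels of the groups overlap. Ratios were -3.15, -2.39 and -2.29 for Pilra (mean -2.61 ± 0.47, 6.11-fold lower). They were -2.58, -2.44 and -2.31 for Pilrb1 (mean -2.44 ± 0.14, 5.43-fold lower). With signals this near background in SA1-null, the size depends on the background correction: with the scanner's own processed signals the mean was -3.51 for Pilra and -3.47 for Pilrb1. Their relative Pilrb2, next to them on chromosome 5 and no member of the 10, had -1.27 ± 0.29 and did not pass the test (limma adjusted p = 0.124). The probe sequences were not used here, so how far the Pilra and Pilrb1 probes read each other's RNA was not tested.

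The kinase Syk varied most. Its levels were 7.19, 8.28 and 8.62 in SA1-null samples, against 9.12, 8.68 and 8.63 in wild-type samples. The gap was wide on replicate 1 and within 0.01 on replicate 3. The ratios were -1.92, -0.40 and -0.01 (mean -0.78 ± 1.01), so the mean was smaller than its SD. In the deposited table, turned to the same direction, Syk stood at 0.01 on replicate 3. Without replicate 1 the mean was -0.21.

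Among the inhibitory receptors, Sirpa, which binds Cd47 on other cells and restrains phagocytosis, is also known outside the blood system. Its levels were 12.25, 10.61 and 10.05 in SA1-null samples, against 13.77, 12.10 and 12.34 in wild-type samples, and SA1-null sample 1 lay above wild-type sample 2. The ratios of this probe were -1.52, -1.49 and -2.29 (mean -1.76 ± 0.45). The other Sirpa probes gave -0.70 ± 0.29 and -0.53 ± 0.22, so the 3 probes spanned 1.24 log2 units and the mean of all 3 was -0.998. Which transcripts of Sirpa each probe reads was not tested.

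Lilrb4a, an ITIM receptor of myeloid and mast cells, and Cd300lf, an ITIM receptor that binds phospholipids and serves murine norovirus as its entry receptor, had their smallest ratios on replicate 1. Lilrb4a had levels of 9.19, 8.02 and 7.52 in SA1-null samples, against 10.29, 10.50 and 10.12 in wild-type samples. Its ratios were -1.10, -2.48 and -2.60 (mean -2.06 ± 0.83). Cd300lf had levels of 6.62, 7.19 and 6.61 in SA1-null samples, against 7.66, 9.18 and 9.0 in wild-type samples. Its ratios were -1.04, -1.99 and -2.39 (mean -1.81 ± 0.69), and its mean was -3.03 with the scanner's processed signals. Neither gene's groups overlapped. Whether the Lilrb4a probe also reads its neighbour and close relative Lilr4b was not tested.

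**Figure D2:**
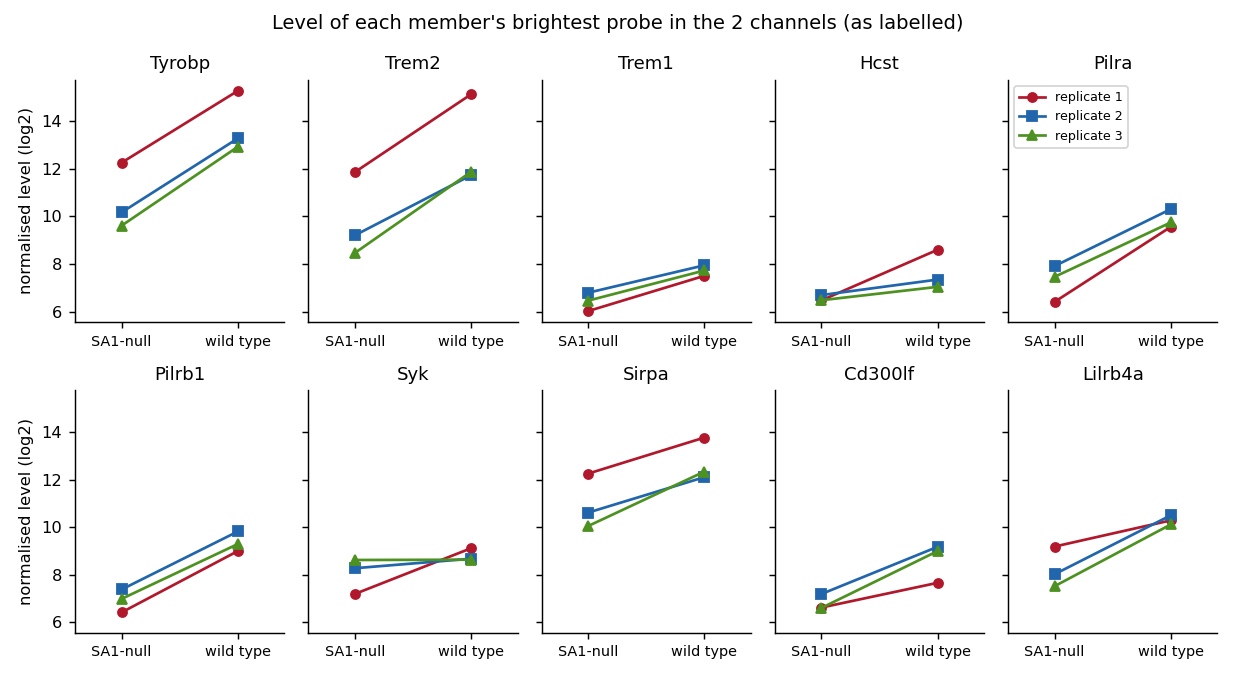
Normalised log2 level (y axis) of each gene's brightest probe in the channel labelled SA1-null (left) and the channel labelled wild type (right), with 1 line per replicate array. The lines run upward to the right, except that of Syk on replicate 3, which is flat (8.62 in SA1-null and 8.63 in wild type), and levels are not to be compared between panels.

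In order of mean ratio the genes ran Tyrobp, Trem2, Pilra, Pilrb1, Lilrb4a, Cd300lf, Sirpa, Trem1, Hcst and Syk. Neighbours in this order had overlapping array values, except Sirpa and Trem1. Activating and inhibitory receptors were mixed along it, and the ITAM adaptor and the ITAM kinase stood at its ends. The order depended on the background correction. With the scanner's own processed signals, Pilra (-3.51), Pilrb1 (-3.47) and Trem1 (-3.40) lay below Tyrobp (-3.23), while Syk stayed last (-0.86).

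The level across replicates, which the choice of genes did not use, split the 10 genes. Tyrobp on replicate 1 was higher than the mean of replicates 2 and 3 by 2.37 in SA1-null and by 2.17 in wild type (log2 units). Trem2 was higher there by 3.03 in SA1-null and by 3.33 in wild type, and Sirpa by 1.92 and 1.55 in the same order of channels. For Sirpa this holds for the brightest of 3 probes, and the others shifted less. Its second probe had levels of 8.38, 7.56 and 7.79 in SA1-null samples, against 9.42, 8.10 and 8.31 in wild-type samples. The third had 7.18, 6.72 and 7.01 in SA1-null samples, against 7.96, 7.15 and 7.38 in wild-type samples. For Tyrobp this shift exceeded that of 98.3% of all genes in SA1-null and 96.4% in wild type, and for Trem2 99.2% and 98.9%. The median gene shifted by -0.14 in SA1-null and by -0.07 in wild type.

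Pilra, Pilrb1, Trem1 and Cd300lf did not share that shift. In SA1-null the signals of these genes, and of Hcst, were near background, which limits what their differences in that channel can show. Trem1 was not well above background there on replicate 1. Tyrobp, Trem2 and Sirpa had the highest mean wild-type levels of the 10 genes (13.83, 12.92 and 12.73). Whether the split follows brightness was not tested. Pilra stood at -1.28 in SA1-null and -0.46 in wild type, and Pilrb1 at -0.77 and -0.56. Trem1 stood at -0.61 in SA1-null and -0.33 in wild type, and Cd300lf at -0.28 and -1.42. Thus Tyrobp and its partner Trem2 were about as much higher on replicate 1 in both channels, while its partners Pilrb1 and Trem1 were not. Hcst, Lilrb4a and Syk differed between the channels. Hcst stood at -0.11 in SA1-null and 1.41 in wild type, Lilrb4a at 1.41 in SA1-null and -0.02 in wild type, and Syk at -1.25 in SA1-null and 0.46 in wild type. The same difference had a median of 1.69 in SA1-null and 2.64 in wild type over 11 macrophage markers. A median above 0 in both channels was also seen over 8 fibroblast markers, at 1.28 in SA1-null and 0.596 in wild type. The fibroblast markers were mixed, with Lum at 7.25 in SA1-null and 3.28 in wild type, and Thy1 at -1.41 and 0.39. The erythroid marker Epor was also above 0 in both channels. Some other marker lists lay on the other side of 0. The median was -1.62 in SA1-null and -3.04 in wild type over 4 epithelial markers. Over 4 osteoclast markers it was -1.42 in SA1-null and -1.55 in wild type. Only 1 array stands on one side of this comparison, and its slide and scanner software version go with it, so no test was possible and the slide and the culture cannot be told apart.

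**Figure D3:**
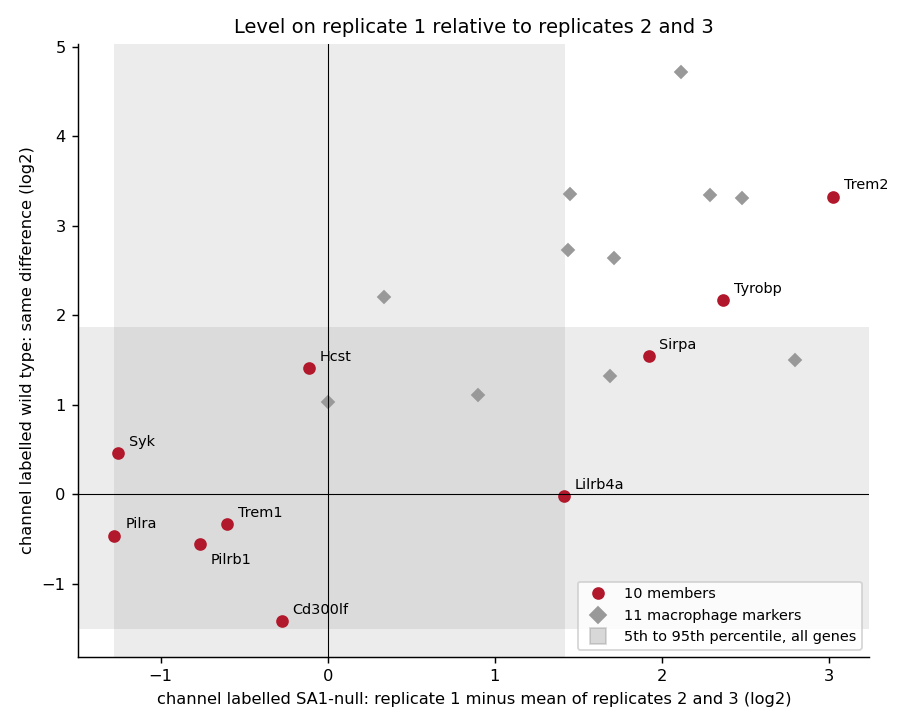
Level on replicate 1 minus the mean level on replicates 2 and 3 (log2), in the channel labelled SA1-null (x axis) and in the channel labelled wild type (y axis), for the 10 genes and 11 macrophage markers. Trem2 (3.03, 3.33) and Tyrobp (2.37, 2.17) lie at the upper right, Pilra, Pilrb1, Trem1 and Cd300lf at the lower left, and the grey bands are the 5th to 95th percentiles of all genes.

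The genes most like Tyrobp were sought as the smallest Euclidean distance between the 3 array ratios, over all genes tested with a symbol. Nearest was Ms4a7, a tetraspan membrane protein, at 0.165, with ratios of -3.03, -2.96 and -3.37. Then came Bcl2a1b, an anti-apoptotic Bcl2 relative, at 0.428, Ncf4, a subunit of the phagocyte NADPH oxidase, at 0.485, Hcls1 at 0.505 and Clec5a at 0.549. Nearest to Trem2 were Ptprc, the leukocyte phosphatase CD45, at 0.314, Hcls1 at 0.463, Ms4a7 at 0.494, Fyb at 0.509 and Fcgr1 at 0.513. Tyrobp and Trem2 lay 0.644 apart, farther than either was from its 5 nearest genes.

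The rest of the pathway was read from 5 lists of other genes, written with earlier results of these data known. Of their 91 genes, 82 had a probe and 64 were tested, and 6 of these fell and 0 rose in SA1-null at a limma adjusted p under 0.05, while 0.303% of all genes fell. The median ratio of the 64 was -0.77 and 51 were below 0. Of all 18485 genes tested, 10052 had a mean below 0 and 1384 an unadjusted p under 0.05 (limma). These are the background for such counts here and below. Each call named below was lost without replicate 2 and without replicate 3, when 0 genes of the whole table were called (1295 and 737 at an unadjusted p under 0.05, limma). Without replicate 1, 284 genes were called, from replicates 2 and 3 on their shared slide. With no filter on dim probes the count was 0 (1982 at an unadjusted p under 0.05).

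Of 14 other activating receptors that use Tyrobp or Hcst, 3 were tested and 1 fell. Clec5a, a lectin receptor that signals through Tyrobp, fell by 3.39 on the log2 scale (SD 0.39, limma adjusted p = 0.0273), with ratios of -3.19, -3.13 and -3.84. Its dimmer probes were at -1.37 and -0.35, the latter well above background in SA1-null on 0 arrays. Pilrb2 is given above. Trem3 was not well above background in SA1-null on any array, and its mean ratio was -0.54 ± 0.13 (limma adjusted p = 0.514). Klrk1, the best-known partner of Hcst, was among the 7 of the list whose probes were too dim to test. The list's median was -1.27.

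Of 7 other ITAM-bearing adaptors, 2 were tested. Fcer1g, the gamma chain of Fc receptors and, like Tyrobp, an ITAM adaptor of macrophages, fell by 2.74 (SD 0.50, limma adjusted p = 0.0428) with ratios of -3.31, -2.53 and -2.39. Cd3e, the T cell receptor chain, was at -0.19. The other 5, among them Cd247 and Cd79a, had probes too dim to test.

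Of 19 other inhibitory receptors, phosphatases and ligands, 13 were tested, all 13 had a mean below 0, and 3 fell. Their median was -1.29. Clec4a2, an ITIM lectin receptor, fell by 2.32 (SD 0.11, limma adjusted p = 0.0273), with a second probe at -1.22. Lair1, a collagen receptor with ITIMs, fell by 2.57 (SD 0.38, limma adjusted p = 0.0347), with a second probe at -1.63. Ptpn6, the phosphatase SHP-1 that ITIMs recruit, fell by 2.70 (SD 0.53, adjusted p = 0.0481), although its dimmer probe was at -0.40. Cd72 (-2.01, limma adjusted p = 0.0566), Fcgr2b (-3.15, adjusted p = 0.0669) and the lipid phosphatase Inpp5d (-2.94, adjusted p = 0.0927) did not pass. Cd47, the widely expressed ligand of Sirpa, was at -0.10 ± 0.15.

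Of 33 kinases, adaptors and effectors that act after the ITAM, 32 were tested, 25 were below 0 and 1 fell. The list's median was -0.75. Fyb, an adaptor of haematopoietic cells, fell by 2.84 (SD 0.25, limma adjusted p = 0.0273), and its second probe was at -1.37. Lat2 (-2.15, limma adjusted p = 0.0724), Plcg2 (-1.81, adjusted p = 0.0792), Blnk (-2.77, adjusted p = 0.0926) and Vav1 (-2.29, adjusted p = 0.0933) did not pass. Array medians of this list were -1.61, -0.46 and -0.38, so replicate 1 was farther from 0 than the others.

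Of 18 ligands, sheddases and downstream genes of Trem2, 14 were tested, 0 were called (limma, 3 at an unadjusted p under 0.05) and the median was -0.11. Apoe, a lipoprotein that Trem2 binds, had ratios of -6.18, -1.92 and -2.20 (mean -3.43 ± 2.38, limma adjusted p = 0.471), so replicate 1 stood far from the others. Csf1, the growth factor that macrophages depend on and fibroblasts make, was at -0.65 ± 0.40 (adjusted p = 0.602).

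**Figure D4:**
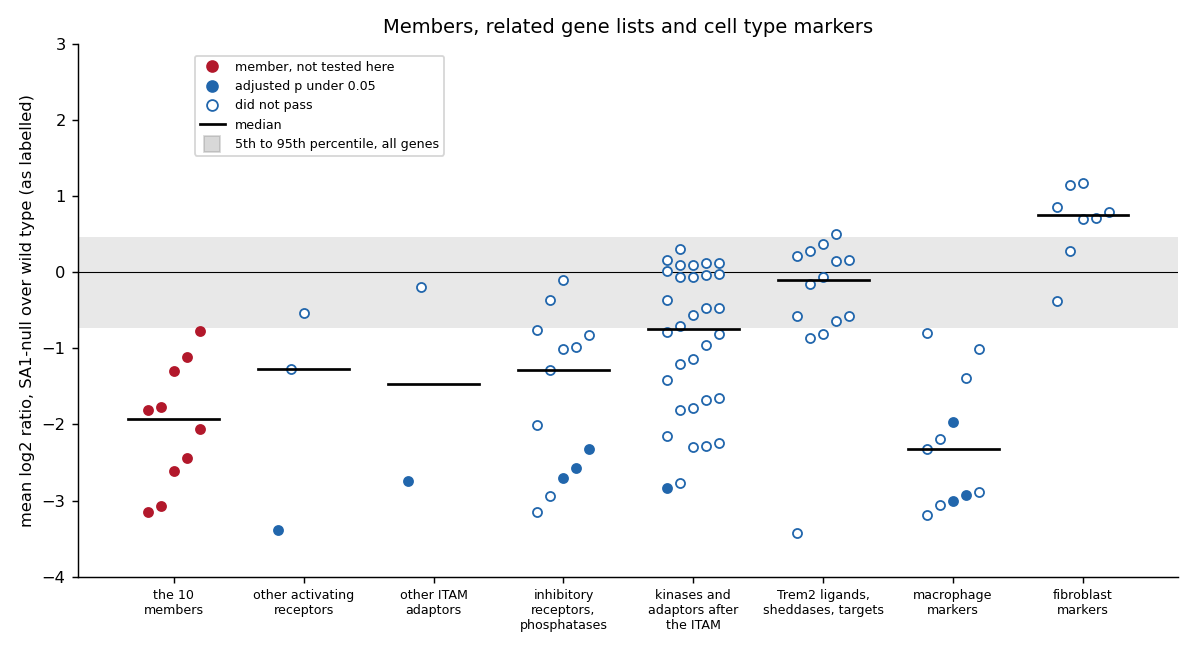
Mean log2 ratio of SA1-null over wild type (y axis) for each tested gene of the 10, of 5 pathway lists and of 2 marker lists (x axis), with medians as lines and genes past an adjusted p of 0.05 filled. The 10 genes have a median of -1.93, the macrophage markers -2.32 and the fibroblast markers 0.75, against a grey band of -0.74 to 0.46 for most genes.

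Genes that lie beside the 10 on the chromosome gave another view. Of the nearest protein-coding genes on each side, 32 in all, 20 were tested, 0 were called (limma, 7 at an unadjusted p under 0.05) and the median was -0.28. Tyrobp and Hcst are direct neighbours on chromosome 7. The measured genes on either side of that pair were at 0.22 (Sdhaf1), 0.30 (Lrfn3), -0.29 (Nfkbid) and -0.29 (Aplp1), with limma adjusted p from 0.703 to 0.740. Beside Pilra and Pilrb1, Mepce and Zcwpw1 were at 0.17 and 0.11. Beside Trem2, Nfya was at 0.00 and Treml1 at -0.95 ± 0.59.

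The neighbours with the smallest p were Il1b, the cytokine gene near Sirpa (-2.25 ± 0.58, limma adjusted p = 0.0780, above background in SA1-null on 1 array), Pilrb2, Treml4 (-2.37 ± 0.86, adjusted p = 0.154), which lies beside Trem1, and Trem3. None passed the test. Il1b, Pilrb2, Treml4 and Trem3 are themselves genes of myeloid cells or relatives of the 10.

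**Figure D5:**
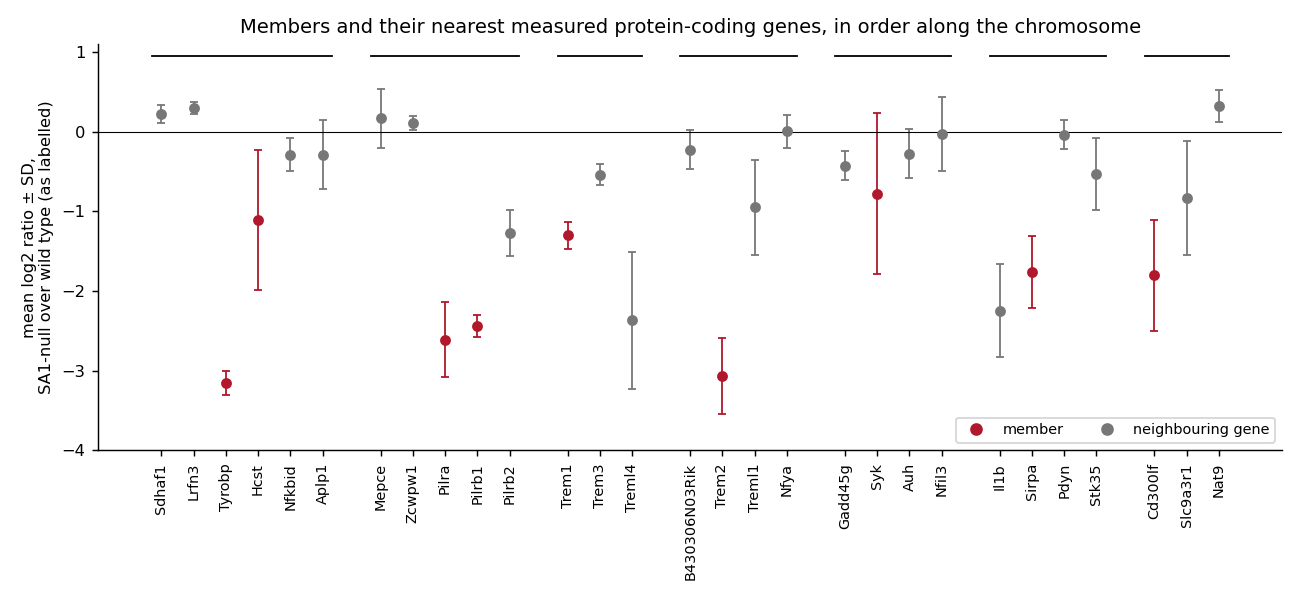
Mean log2 ratio of SA1-null over wild type with SD over the 3 arrays (y axis) for the genes with a measured neighbour and those neighbours, in order along each chromosome (x axis, 1 bracket per locus). Tyrobp (-3.15) and Hcst (-1.11) stand between neighbours at 0.22, 0.30, -0.29 and -0.29.

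Markers of macrophages were lower in SA1-null, as the 10 genes were. Of 12 listed, 11 were tested, all 11 were below 0 on all 3 arrays with a median of -2.32, and 3 fell. Array medians were -3.06, -2.12 and -2.07 for these markers and -2.03, -2.19 and -2.30 for the 10 genes. Ptprc fell by 2.92 (SD 0.35, limma adjusted p = 0.0273), Cd14 fell by 1.97 (SD 0.22, limma adjusted p = 0.0410) and Aif1 fell by 3.01 (SD 0.64, limma adjusted p = 0.0498). The second Ptprc probe was at -1.04 and that of Aif1 at -3.08. The summed normalised level of the 11 markers ranged from 2278 to 9674 in SA1-null samples and from 14972 to 84521 in wild-type samples. None of the 11 was below background in SA1-null on all arrays, and 9 were above it on all 3. Their part in the ratios of the 10 genes was not tested.

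Neutrophil and mast cell markers were hardly visible. Of 8 neutrophil and 7 mast cell markers, 1 each was bright enough to test (Mpo at 0.05 and Mcpt4 at 0.21), and neither was called. Of 7 osteoclast markers, 4 were tested with a median of -0.13, and Acp5 and Ctsk were at -0.35 and 0.79 (limma adjusted p = 0.685 and 0.703). Of the fibroblast label's own markers, 8 of 10 were tested, all 8 had signals above background in each of the 6 samples, and their median ratio was 0.75 with 0 called (limma, 4 at an unadjusted p under 0.05). Markers of other tissues were measured too. In SA1-null on all arrays, 3 of 4 tested epithelial, 3 of 3 neural and 2 of 2 endothelial markers were above background. The epithelial keratin Krt8 was at -1.02 (limma adjusted p = 0.318) and Krt18 at -0.75 (limma adjusted p = 0.623), both below 0 on all 3 arrays. The other tested epithelial markers, Krt19 and Cdh1, were at 0.66 and 0.08. Sox2, of neural progenitors, had ratios of -4.68, 0.21 and -0.06. The neural marker Tubb3 had ratios of 0.48, 0.37 and 0.66, and Map2 had a mean of -0.17.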

How the data were processed

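Feature Extraction made the scanner files (10.1.1.1 for replicate 1, 10.7.3.1 for replicates 2 and 3), and each holds, per the file headers, the median intensity of every spot and of its surroundings in both dyes. The processed intensity values are background-subtracted, detrended and dye-normalized, per the file headers. The deposited table holds 1 log2 value per probe and array, made with limma per the submitters' processing notes. Set against the loess ratios it ran as Cy5 over Cy3 (correlations 0.985, 0.982 and 0.997 across probes), and its turned medians were 0.02, 0.02 and 0.01. How it was centred is unknown.

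Median signals were background-corrected (normexp, offset 50) and loess-normalized array by array with R 4.3.3 and limma 3.58.1. Control and flagged spots (116, 125 and 207) had weight 0 and then were left out. The 24015 probes well above background in the same channel on all 3 arrays were kept, and the brightest probe stood for its gene. Levels are loess values scaled by Aquantile. Ratios were tested against 0 with lmFit and eBayes and adjusted over 18485 genes, of which 12025 had a symbol from the RefSeq table of GRCm38.p6. The array header names another assembly, so the only coordinates given are those of the RefSeq promoter windows. The number of arrays limits the precision. The arrays pair the samples. The genes and lists were chosen with earlier results of these data known. All members were named, called list genes or the up to 4 with the smallest p, and the 5 nearest genes of Tyrobp and of Trem2. The method was tested on simulated data. The alternatives, 16 in all, cover background, normalization, filters, probes, slide, pairing, threshold and left-out replicates. Sequence was read with Python 3.11.15 and Biopython 1.88, and figures drawn with matplotlib 3.10.9.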

Additional observations from a re-analysis of the deposited data

How the results depend on the processing

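Each of the 10 genes kept a mean ratio below 0 under every alternative that measured it. Calls moved more. Without background subtraction 118 genes were called, the members' median was -2.21, and 6 inhibitory receptors or phosphatases, 3 kinases or adaptors and 2 neighbours were called. With an offset of 0 there were 265 genes, 7 members, a median of -2.66, and 3 activating receptors, 8 of the inhibitory list, 8 kinases or adaptors and 5 neighbours. With the processed signals there were 326 genes, 7 members, a median of -3.13, and 3, 8, 9 and 5 in the same lists. With median centring, which moved the median of all genes to -0.30, there were 34 genes, 2 members, a median of -2.28 (relative to that shift it lies nearer the main value), 0 ITAM adaptors, 1 of the inhibitory list and 2 kinases or adaptors. With scaling between arrays there were 160 genes, 5 members, a median of -2.08, 2 activating receptors, 6 of the inhibitory list, 4 kinases or adaptors and 1 neighbour. The deposited values gave 55 genes, 0 ITAM adaptors and 2 of the inhibitory list. Requiring both channels above background gave 92 genes, 5 of the inhibitory list and 2 kinases or adaptors, with 9 members tested. The mean of all probes gave 48 genes, 1 of the inhibitory list and 0 kinases or adaptors, and moved Sirpa to -0.998. Slide as a fixed term gave 1770 genes, all 10 members, a median of -1.76, 2 activating receptors, 11 of the inhibitory list, 16 kinases or adaptors, 3 Trem2-related genes and 5 neighbours. In the fit with a slide term, replicate 1 was alone on its slide, so the spread came from replicates 2 and 3 only. Its higher counts are therefore not to be read as added sensitivity. At an adjusted p under 0.1 there were 132 genes, 6 members, 6 of the inhibitory list, 5 kinases or adaptors and 1 neighbour. With no filter on dim probes, and likewise with both channels as separate samples and no replicate block, limma called 0 genes, 0 members and 0 in each list (1982 and 633 genes at an unadjusted p under 0.05). Leaving out 1 replicate gave 0 to 284 genes, 0 to 8 members and a median of -2.26 to -1.65. It gave 0 to 1 activating receptors, 0 to 1 ITAM adaptors, 0 to 6 of the inhibitory list, 0 to 9 kinases or adaptors, 0 to 2 Trem2-related genes and 0 to 2 neighbours. The 284 came without replicate 1, from replicates 2 and 3 on their shared slide, and the 0 without replicate 2 or 3. The causes were not tested. Precision is limited by 3 arrays on 2 slides, by dye bound to genotype, by Stag1 against its labels, and for Trem1, Cd300lf, Hcst, Pilra and Pilrb1 by signals near background in SA1-null.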
